A study of Mus musculus with 18 samples.

Results

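Genes of mitochondrial ribosomal proteins, chosen as the symbols that begin with *Mrpl* or *Mrps* and continue with a number, were followed through RNA of microglia, astrocytes and neurons from the mouse brain. The counts table lists 78 of them among 35960 symbols. Of these, 72 had at least 5 reads in at least 2 of the 18 libraries, as had 13552 symbols of the whole series. *Mrpl22*, *Mrpl36*, *Mrpl44*, *Mrpl50*, *Mrps22* and *Mrps28* did not reach this number of reads and are counted here but not tested.

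The *Atxn2*-CAG100-KIN mice are homozygous for a knock-in of 100 CAG repeats in *Atxn2*, the gene of ataxin-2, and served as a model of spinocerebellar ataxia type 2. They were compared with wild-type (WT) littermates on the C57BL/6 background, all at the age of 10 months and without treatment. Each pair was of the same sex, and both male and female pairs were used. Each of 3 KIN and 3 WT brains gave all 3 fractions in sequence: microglia bound by CD11b beads, then astrocytes bound by ACSA-2 beads, then neurons as the cells left unbound after depletion of non-neuronal cells. All cells of an animal carried the same genotype, so an effect of the knock-in within a cell type and an effect of its surroundings cannot be told apart. Neither can fewer cells of a type and less RNA per cell.

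Mitochondrial ribosomes consist of a small and a large subunit and translate only the few messenger RNAs encoded by mitochondrial DNA, all of them for respiratory chain and ATP synthase subunits. Their protein components are encoded in the nucleus, made in the cytosol and imported. Some descend from proteins of bacterial ribosomes, and others are found only in mitochondria. Names and places do not always match: *Mrps30* and *Mrps18a* encode proteins of the large subunit, and the *Mrps36* product is a part of the 2-oxoglutarate dehydrogenase complex. By place, the 72 genes comprised 47 of the large subunit, 24 of the small subunit and *Mrps36*.

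The sequences around *Mrpl52* are shown first, since of the 2 genes called for a KIN effect it had the larger fold change. It lies on chromosome 14 of GRCm39 from 54664360 to 54668593 on the plus strand, and its product is a large-subunit protein without a bacterial relative. The 250 bases before its start, chr14:54664110-54664359, hold the core letters bound by ETS factors (CCGGAAG on either strand) and by YY1 (AAGATGG on either strand), which are in capitals. *Mrps21*, the other gene called in KIN astrocytes, encodes the relative of bacterial protein S21 and lies on chromosome 3 from 95766069 to 95778879 on the minus strand. Of its promoter, the 202 bases outside exons of coding genes, chr3:95778880-95779081, are shown and hold none of these letters. Both sequences read 5′ to 3′ in the direction of transcription.
*Mrpl52* promoter: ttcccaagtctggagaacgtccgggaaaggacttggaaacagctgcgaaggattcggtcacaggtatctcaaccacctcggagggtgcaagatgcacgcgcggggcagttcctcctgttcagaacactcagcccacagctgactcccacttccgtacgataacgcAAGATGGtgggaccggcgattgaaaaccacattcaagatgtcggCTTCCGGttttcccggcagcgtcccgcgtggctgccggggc
*Mrps21* promoter: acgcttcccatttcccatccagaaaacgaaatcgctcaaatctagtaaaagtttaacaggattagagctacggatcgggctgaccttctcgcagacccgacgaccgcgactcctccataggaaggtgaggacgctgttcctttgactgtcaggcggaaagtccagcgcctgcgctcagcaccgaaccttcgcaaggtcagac

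The ETS core was found before 12 of the 72 genes (16.7%) and before 1500 of 21770 protein-coding genes (6.89%). For the YY1 core the numbers were 6 of 72 (8.33%) and 894 of 21770 (4.11%). The core of NRF-1, a regulator of nuclear genes for mitochondrial proteins, searched as GCGCATGC on both strands, was found before 2 of 72 (2.78%) and 583 of 21770 (2.68%). A match describes letters in a window of 250 bases and is not a measured binding site. The start of another protein-coding gene on the opposite strand lay within 1000 bases of 26 of the 72 genes (36.1%), against 1928 of 21770 (8.86%). The 21770 genes were not filtered on reads, unlike the 72, so these shares are not matched for expression. Exons of 55 of the 72 genes shared bases with another gene, and reads were counted without strand, so that such genes are partly uncertain.

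Replicates of a group differed by more than counting error (chi-square per degree of freedom 1.72 to 45.6 between pairs of libraries). Total counts ranged from 761481 to 3296398 per library, of which the 10 most abundant transcripts took 75.8% to 85.4%. Levels are given as CPM, the usual unit of read counts relative to the library total, here with TMM factors over all 18 libraries, and 3 counts corresponded to 0.864 CPM in the deepest and 4.05 CPM in the shallowest library on this scale. One gene stood apart. *Mrpl57*, for a large-subunit protein, had 971 to 7476 counts per library, or 80.4% to 92.0% of all counts of the 72 genes, while no other gene exceeded 51 counts. Nearly all of its counts, 72156 of 72203, were on transcript ENSMUST00000022538, of 2904 bases, in which a stretch of 190 bases (bases 1591 to 1780) aligned to transcripts of 2474 other symbols at a median identity of 78.0%. The part of such shared sequence in its counts was not tested. Since *Mrpl57* would outweigh the other genes, it is kept out of the sums below. Its KIN effect was 0.24 in astrocytes, -0.39 in microglia and -0.20 in neurons on the log2 scale and passed in none of them. The remaining 71 genes had 162 to 1035 counts per library together, and only 15 of the 72 reached a mean of 10 counts over the libraries. After *Mrpl57*, the highest mean levels over the 18 libraries were those of *Mrpl48* (13.7 CPM), *Mrpl33* (12.4 CPM), *Mrps26* (12.1 CPM), *Mrpl13* (9.32 CPM) and *Mrpl11* (8.83 CPM). The comparison of these levels between genes is not scaled for length.

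The sorted fractions were checked with marker genes. The summed level of 5 microglial markers was 374 to 645 CPM in microglia and at most 11.4 CPM elsewhere, and that of 5 astrocyte markers was 173 to 409 CPM in astrocytes and at most 15.9 CPM elsewhere. The astrocyte fraction also held markers of oligodendrocytes, the myelin-forming cells, with a sum of 292 to 468 CPM over 5 genes, which exceeded that of the astrocyte markers in all 3 KIN and in 2 of 3 WT libraries. Of 10 neuronal markers, *Tubb3* (mean 71.2 CPM in WT and 96.7 CPM in KIN) and *Gad1* (19.5 and 14.1 CPM) were highest in the neuronal fraction. Others were not: *Snap25*, of the synaptic vesicle fusion machinery, was at 3.82 CPM in WT neurons and 16.9 CPM in WT astrocytes. The names of the neuronal and the astrocyte fraction thus follow the sort, and the markers bear them out only in part.

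In astrocytes, the first comparison was that of KIN with WT. The summed level of the 46 large-subunit genes without *Mrpl57* was 160, 171 and 151 CPM in the 3 WT libraries and 204, 226 and 206 CPM in the 3 KIN libraries. That of the 24 small-subunit genes was 77.7, 69.2 and 74.3 CPM in WT and 91.9, 91.1 and 103 CPM in KIN. For both subunits every KIN library lay above every WT library, and the ratio of the sums, 2.04 to 2.46 in WT and 1.99 to 2.48 in KIN, overlapped.

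**Figure D1:**
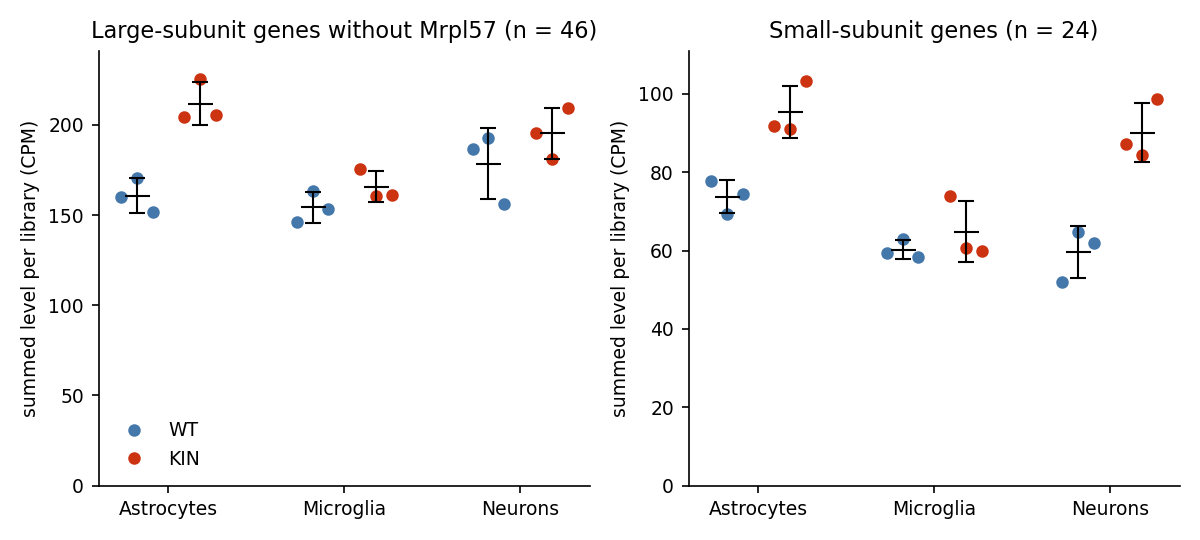
Summed level in CPM (vertical axis) of the large-subunit genes without *Mrpl57* (left) and of the small-subunit genes (right) by fraction. Each point is 1 library, and bars are mean and SD of 3 libraries. KIN and WT do not overlap for both subunits in astrocytes and for the small subunit in neurons.

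Of 67 genes that could be tested in astrocytes with edgeR's quasi-likelihood test, *Mrpl52* and *Mrps21* were called higher and 0 were called lower, where a call needs an adjusted *p* of at most 0.05 and a log2 fold change of at least 1 in size. Over all 11751 genes tested, 2.43% were called higher and 6.42% lower. By the adjusted *p* alone, *Mrpl35* joined them, which makes 3 of 67 against 4.33% of all genes. At an unadjusted *p* of at most 0.05, 13 of the 67 were higher and 0 lower, against 10.4% and 14.5% of all genes. The log2 fold change was above 0 for 48 of the 67, with a median of 0.42, and the median of all genes was -0.0042. Of the 67, 0 reached the filter of 5 reads through KIN libraries alone and 3 through WT libraries alone. In 17 of the 67 every KIN library lay above every WT library (13.8% of all genes), and in *Mrpl47* alone every KIN library lay below (14.1%). With 1 library left out, 1 to 7 genes were called higher, the 7 without WT replicate 2, where 472 of all 11370 genes were.

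**Figure D2:**
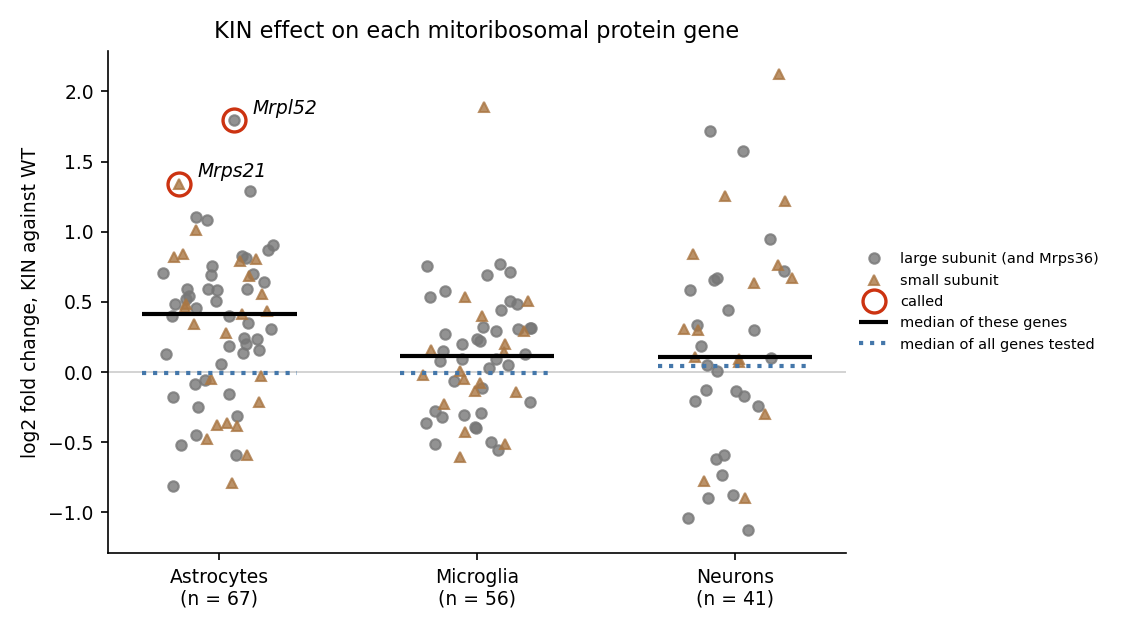
Log2 fold change between KIN and WT (vertical axis) of each gene tested, by fraction, with 67 genes in astrocytes, 56 in microglia and 41 in neurons. Circles are genes of the large subunit (with *Mrps36*), triangles those of the small subunit, red rings the called genes; black lines are medians of these genes and dotted lines medians of all genes tested. The black line lies at 0.42 in astrocytes and at 0.11 in microglia and neurons.

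*Mrpl52* had 3, 8 and 7 counts in WT astrocytes and 20, 16 and 20 counts in KIN astrocytes, or 1.95 ± 0.799 CPM and 7.21 ± 1.28 CPM (SD, n = 3 each). The groups did not overlap, and WT astrocytes were the lowest of the 6 groups. Its log2 fold change was 1.80 (SE 0.386, adjusted *p* = 0.000957, edgeR). *Mrps21* had 8, 5 and 6 counts in WT and 14, 13 and 16 in KIN astrocytes, or 2.11 ± 0.632 CPM and 5.61 ± 1.39 CPM (SD, n = 3 each). Its groups did not overlap either, and the log2 fold change was 1.34 (SE 0.406, adjusted *p* = 0.0207, edgeR). This call was lost with DESeq2 (adjusted *p* = 0.123) and without WT replicate 3, KIN replicate 2 or KIN replicate 3 (adjusted *p* of 0.0876 to 0.0971), while that of *Mrpl52* held in each of these fits. With only the most abundant transcript of each gene, neither was called (adjusted *p* = 0.197 for *Mrpl52* and 0.624 for *Mrps21*, edgeR), and exons of both share bases with a gene on the opposite strand. *Mrpl35*, a relative of bacterial L35, had 17, 18 and 16 counts in WT and 46, 17 and 24 in KIN astrocytes. Its CPM values of 6.00, 5.85 and 5.02 against 13.3, 8.70 and 9.20 did not overlap, with a log2 fold change of 0.90 (SE 0.292, adjusted *p* = 0.0321, edgeR).

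Next in size came *Mrpl41* of the large subunit, with 1.06, 2.28 and 1.25 CPM in WT and 4.03, 4.09 and 3.45 CPM in KIN astrocytes. Its log2 fold change of 1.29 (SE 0.471) had an adjusted *p* of 0.063 in edgeR and did not pass. *Mrps24*, the relative of bacterial S3 in the small subunit, was at 3.18, 3.90 and 1.88 CPM in WT and at 5.47, 5.63 and 7.29 CPM in KIN, with a log2 fold change of 1.02 (SE 0.364, adjusted *p* = 0.0568, edgeR). For both, the libraries of the groups did not overlap. *Mrpl11*, which forms the base of the stalk where translation factors bind, was at 7.08 ± 2.54 CPM in WT and 11.8 ± 1.80 CPM in KIN astrocytes (SD, n = 3 each) and did not pass (adjusted *p* = 0.102, edgeR). On the other side, *Mrpl47* (log2 fold change -0.81, SE 0.692), *Mrps31* (-0.79, SE 0.852) and *Mrps35* (-0.59, SE 0.40) had the most negative values, and none of them passed (adjusted *p* of 0.376 to 0.627, edgeR). *Mrpl47* and *Mrps31* reached 5 reads in WT libraries alone, which favours such values.

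**Figure D3:**
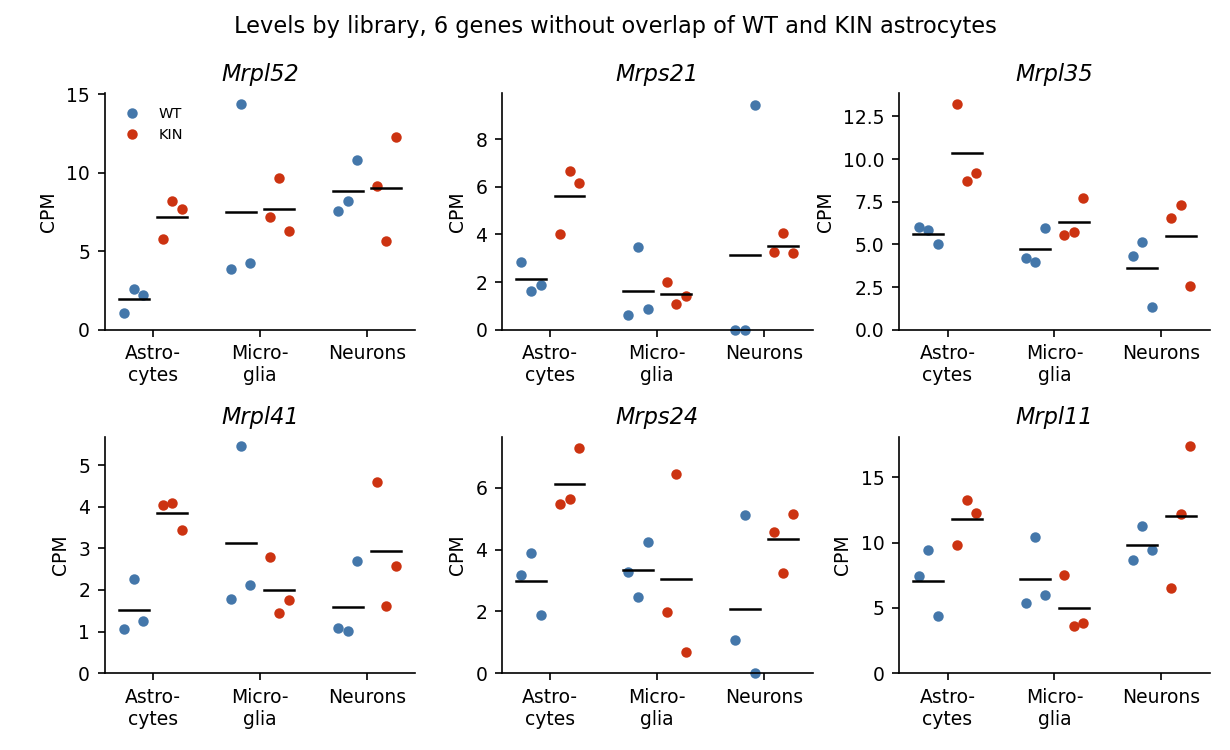
Level in CPM (vertical axis) of 6 genes by fraction and genotype. Each point is 1 library and lines are means of 3. In astrocytes, WT and KIN libraries of all 6 genes are separate, and in microglia and neurons they overlap.

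Other properties of the libraries moved with the genotype in astrocytes. TMM factors were 1.33 to 1.51 in WT and 0.79 to 1.23 in KIN, and 17217 to 17876 symbols had a read in WT against 15078 to 16950 in KIN. The summed level of 10 neuronal markers was 49.7 to 175 CPM in WT and 36.8 to 47.2 CPM in KIN astrocytes, and 9 of the 10 were called lower. That of 5 astrocyte markers was 285 to 409 CPM in WT and 173 to 189 CPM in KIN, with 2 of 5 called lower, and that of 5 oligodendrocyte markers was 292 to 463 CPM and 458 to 468 CPM, with 1 of 5 called higher. WT replicate 2 stood apart from the other WT libraries. It had 49.7 CPM of neuronal markers, against 175 and 144 CPM, and 463 CPM of oligodendrocyte markers, against 292 and 306 CPM. Of the neuronal list, *Rbfox3* had 0 counts in 1 astrocyte library, and of the microglial list (3.17 to 9.41 CPM summed) *Aif1*, *Tmem119* and *P2ry12* had 0 counts in 4 or 5 of 6. The part of these differences in the higher levels of mitoribosomal protein genes was not tested.

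*Mrpl52* was also followed by transcript. The table lists 7 of its transcripts, and 4 hold most of its counts. ENSMUST00000010550 joins exons 1 and 2 across an intron of 73 bases, while in ENSMUST00000199195 this intron is kept within a first exon from 54664387 to 54664548. Both end in a last exon of 1555 bases, from 54667039 to 54668593, whereas the last exon of ENSMUST00000196273 ends at 54667206. The borders of the intron and the ends of the 2 last exons are printed because the transcripts differ there, with exon bases in capitals in the first pair and the AATAAA signal for polyadenylation in capitals in the second pair.
Exon 1 and intron, chr14:54664403-54664432: GGACCTGGCTGTCCAgtgagtgattgtggg
Intron and exon 2, chr14:54664476-54664505: ctgctcttccattagGTGTCCGGAGATTGC
Long last exon, chr14:54668564-54668593: AATAAAggggtcggtcccccaattcaaagt
Short last exon, chr14:54667177-54667206: aatcAATAAAaagcagctcctgccccactt

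ENSMUST00000199195 had 0 counts in each of the 3 WT astrocyte libraries and 4, 5 and 8 counts in the KIN ones. Every KIN library thus lay above every WT library, and against a floor of 3 counts per WT library its level was at least 2.28-fold higher. It was the 1 transcript of the gene that was called (adjusted *p* = 0.00602, edgeR over 15548 transcripts, of which 2.51% were called higher). It reached the filter of 5 reads in 2 libraries through KIN libraries alone, which favours a higher level among the transcripts tested, so the call adds little to the counts. ENSMUST00000010550 had 0, 4 and 0 counts in WT and 5, 6 and 3 counts in KIN astrocytes, with a log2 fold change of 1.86 (SE 0.958, adjusted *p* = 0.224, edgeR). In astrocytes ENSMUST00000196273 had 2, 3 and 4 counts in WT and 4, 2 and 3 in KIN, and its groups overlapped. ENSMUST00000199689, annotated as retained_intron, had 0, 1 and 2 counts in WT and 4, 3 and 5 in KIN, without overlap and below the number of reads for the test.

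DESeq2 gave no adjusted *p* for ENSMUST00000199195, and without KIN replicate 2 or KIN replicate 3 it had too few reads to be tested. It was called in the other 4 fits with a library left out. In microglia it had 3, 7 and 4 counts in WT and 5, 3 and 5 in KIN (log2 fold change -0.27, SE 0.608, adjusted *p* = 0.965, edgeR), and in neurons 2, 2 and 4 in WT and 3, 2 and 1 in KIN. The 3 libraries of WT astrocytes were thus the only ones of 18 without a read of it. The split between transcripts is uncertain: of 1801 words of 50 bases in ENSMUST00000199195, 0 were absent from the other listed transcripts of the gene, and in ENSMUST00000010550 the share was 0.513%.

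In microglia, 56 genes could be tested for the KIN effect, and edgeR called 0 of them, against 1.52% of all 10831 genes. By the unadjusted *p*, 0 were higher and 0 lower, against 6.19% and 5.85% of all genes. DESeq2 called 0 of the 56, and over all 10831 genes it called 41 higher and 7 lower. The median log2 fold change was 0.11, with -0.006 over all genes. The filter was reached in KIN libraries alone by 2 genes, *Mrps18b* and *Mrps33*. All KIN libraries lay above all WT libraries in 5 of the 56 (8.46% of all genes) and below in 2 (7.55%). The summed level of the large-subunit genes was 146, 163 and 153 CPM in WT and 176, 160 and 161 CPM in KIN, and that of the small-subunit genes was 59.4, 63.0 and 58.3 CPM against 73.9, 60.7 and 60.0 CPM. These values overlapped for the large subunit, and so did those for the small subunit.

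The largest values in microglia were those of *Mrps33* of the small subunit (adjusted *p* = 0.492), *Mrpl4*, which lines the exit tunnel of the nascent chain (log2 fold change 0.77, SE 0.395, adjusted *p* = 0.461), and *Mrpl17* (0.75, SE 0.426, adjusted *p* = 0.531, edgeR). The lowest were those of *Mrps23* (-0.61), *Mrpl41* (-0.55) and *Mrps34* (-0.51). None of the 6 passed. *Mrps33* had only 3 counts in WT and 13 in KIN microglia, a ratio of levels of 4.10 with an exact 95% counting interval from 1.13 to 22.4, and it could be tested only because of its KIN libraries, so its place among the largest values follows in part from the filter. *Mrpl52* was at 3.88, 14.4 and 4.26 CPM in WT and at 7.15, 9.69 and 6.31 CPM in KIN microglia, with a log2 fold change of 0.15 and a 95% interval from -0.60 to 0.90. WT replicate 2 was far above the other WT libraries in this gene, and the interval does not show that the genotypes are alike. This library also had the lowest TMM factor of all, 0.612. In microglia too, neuronal markers were lower in KIN (11.8 to 13.5 CPM summed, against 22.8 to 90.2 CPM in WT).

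In neurons, 41 genes passed the filter on reads, and edgeR called 0 of them for the KIN effect, against 0.0739% of all 6765 genes. The unadjusted *p* was at most 0.05 for *Mrps17* with a higher level (2.66% of all genes) and for *Mrpl33* and *Mrpl13* with a lower one (2.38% of all genes). DESeq2 called 0 of all 6765 genes, so that its 0 among the 41 adds nothing. Of the 41, 10 reached 5 reads in KIN libraries alone, *Mrps17*, *Mrpl58* and *Mrpl17* among them, and 0 in WT libraries alone. All 10 had a log2 fold change above 0, which the filter favours, while the other 31 divided into 16 above and 15 below 0. The median over the 41, 0.11, with 0.045 over all genes, is thus no measure of a direction. All KIN libraries lay above all WT libraries in 6 genes (11.5% of all genes), 3 of them among the 10, and below in *Mrpl27* alone (2.22%).

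*Mrps17*, the relative of bacterial S17, had 2, 1 and 0 counts in WT and 8, 6 and 12 counts in KIN neurons, and the groups did not overlap. With so few WT counts, the ratio of levels was 5.31 with an exact 95% counting interval from 1.63 to 27.4, and the adjusted *p* was 0.861 (edgeR). The filter on reads favours a high ratio here and in the next 2 genes. *Mrpl58*, a peptidyl-tRNA hydrolase that is built into the large subunit, had 3 counts in WT and 19 in KIN (ratio 3.88, interval 1.14 to 20.5), and *Mrpl17* had 2 and 12 (ratio 3.67, interval 0.818 to 33.8). At the other end were *Mrpl2* (-1.13, SE 0.866), *Mrpl33* (-1.04, SE 0.372) and *Mrps34* (-0.90, SE 0.767) on the log2 scale. These 5 genes had an adjusted *p* of 0.699 to 0.968 in edgeR. *Mrpl33*, the relative of bacterial L33, had 11.9, 36.9 and 16.2 CPM in WT and 10.5, 13.0 and 12.9 CPM in KIN neurons. WT replicate 2 was high and the groups overlapped. The same library stood apart in oligodendrocyte markers, with a sum of 237 CPM against 9.76 to 30.8 CPM in the other 5 neuronal libraries, and their part in its levels was not tested. *Mrpl52* had 7, 8 and 8 counts in WT and 14, 7 and 19 counts in KIN neurons, with a log2 fold change of -0.13 and a 95% interval from -0.999 to 0.75. The sign of this value turned in several other fits, given in the closing section.

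In neurons, the sum over the 24 small-subunit genes was 52.04, 64.6 and 62.02 CPM in WT and 87.1, 84.4 and 98.7 CPM in KIN, and all KIN libraries lay above all WT libraries. The large-subunit sum was 186, 193 and 156 CPM in WT and 195, 181 and 210 CPM in KIN and overlapped. The ratio of the large-subunit to the small-subunit sum was 3.58, 2.98 and 2.52 in WT and 2.24, 2.14 and 2.12 in KIN neurons, without overlap. In the 6 astrocyte libraries it was 1.99 to 2.48 and in the 6 microglia libraries 2.38 to 2.68. The small-subunit sums rest on 46 to 63 counts per library in WT and 104 to 153 in KIN neurons, and by gene all KIN libraries lay above all WT libraries in 2 of 15 small-subunit and 4 of 26 large-subunit genes tested, with 11.5% among all genes. A difference between the subunits was not tested. The 3 WT libraries had total counts of 761481 to 1017972 against 1473194 to 2017932 in KIN. The part of depth in this difference was not tested. The sums use TMM factors over all 18 libraries. With these libraries fitted together, the median neuronal KIN effect over all genes was 0.23, against 0.045 in the fit of neurons alone. Its part in the sums was not tested either.

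With all 18 libraries and the fraction as a covariate, 0 of the 72 genes were called for the compound KIN effect, against 2.07% of all 13552 genes, and DESeq2 also called 0. At an unadjusted *p* of at most 0.05, 9 were higher and 0 lower (8.19% and 7.42% of all genes). The median was 0.29, with 0.03 over all genes. *Mrpl35* was at 0.67 (SE 0.233, adjusted *p* = 0.102, edgeR) and *Mrpl52* at 0.61 (SE 0.262, adjusted *p* = 0.217, edgeR). The KIN effects of microglia and astrocytes were compared as an interaction in the 12 glial libraries. None of the 72 was called in edgeR (1.14% of all genes were), and DESeq2 also called 0. At an unadjusted *p* of at most 0.05, *Mrpl52*, *Mrpl41*, *Mrpl11*, *Mrpl24* and *Mrps34* had a lower KIN effect in microglia (6% of all genes). For *Mrpl52* the difference was -1.65 (SE 0.563, adjusted *p* = 0.136, edgeR). With the mouse as a block, taken from genotype and replicate number, it was -1.75 with an adjusted *p* of 0.0309 (edgeR) and was called. One brain gave all fractions, but the labels do not say that equal numbers mark 1 mouse, so whether the KIN effect on *Mrpl52* differs between the glial fractions depends on that reading. These comparisons share libraries with those within the fractions.

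Between the fractions, over both genotypes, 0 to 6 of the 72 genes were called in each direction, with a fold threshold that left out others of small *p*. Genes named here are those called, and where their libraries overlap they were added after their values were seen. Microglia against astrocytes gave 0 higher and 6 lower of 72, against 14.9% and 18.2% of all 13552 genes. The 6 were *Mrps7*, *Mrps6*, *Mrpl58*, *Mrps21*, *Mrps5* and *Mrpl40*, 4 of the small and 2 of the large subunit. The median of the 72 genes was -0.40, with -0.016 over all genes. In 3 genes all microglia libraries lay below all astrocyte libraries (12% of all genes). By the adjusted *p* alone, with no fold required, 3 were higher and 12 lower in edgeR, beside 2762 higher and 3023 lower of all 13552 genes. DESeq2 also called 0 higher, and over all 13552 genes it called 1897 higher. By the unadjusted *p* in edgeR, 3 were higher (23.6% of all genes) and 16 lower (25.7%). Some were called higher in other fits, beside 1775 to 2125 of 11082 to 13266 genes. There was 1 without WT replicate 1, and 2 each without WT replicate 3, without KIN replicate 3 and with the most abundant transcript. The median ranged from -0.53 to -0.22 with a replicate left out, the latter without WT replicate 3. Neurons against astrocytes gave 2 higher (*Mrps18c* and *Mrpl52*, 11.5% of all genes) and 3 lower (*Mrps6*, *Mrpl17* and *Mrps7*, 19.3%), with a median of -0.19 and -0.27 over all genes. Over the 15 genes with a mean of 10 counts, that median was 0.34, with -0.07 over all genes so filtered. All neuronal libraries lay below all astrocyte libraries in *Mrpl17* alone (10.5% of all genes). Neurons against microglia gave 2 higher (*Mrps5* and *Mrpl27*, 10.2% of all genes) and 0 lower (17.3%), with a median of 0.02 and -0.15 over all genes. DESeq2 called 0 lower as well, and over all 13552 genes it called 2120 lower. By the unadjusted *p* in edgeR, 9 were higher (16.8% of all genes) and 4 lower (24.3%). Some were called lower in other fits, beside 2177 to 2637 of 11082 to 13552 genes. There were 2 without WT replicate 1, and 1 each without WT replicate 2, with the most abundant transcript and by the adjusted *p* alone. All neuronal libraries lay below all microglia libraries in *Mrpl57* alone (10.7%). Several of these calls lay near the threshold. *Mrpl40* (log2 fold change -1.04, adjusted *p* = 0.0457, edgeR) lost its call with DESeq2 (adjusted *p* = 0.0712) and without any 1 of the 6 replicates, where its fold change was -1.24 to -0.71. *Mrps21* (-1.18) lost it without WT replicate 1, WT replicate 3, KIN replicate 2 or KIN replicate 3, where its fold change was -1.09 to -0.74. *Mrps5* lost its call against astrocytes without WT replicate 3 (adjusted *p* = 0.175, edgeR) or KIN replicate 2, and against neurons without KIN replicate 3 (adjusted *p* = 0.0519, edgeR).

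*Mrps7*, the relative of bacterial S7 at the head of the small subunit, ranged from 4.39 to 8.70 CPM in astrocytes with a median of 7.81 CPM. It ranged from 0.992 to 3.41 CPM in microglia (median 2.73 CPM) and from 1.08 to 6.45 CPM in neurons (median 2.52 CPM). Microglia lay below astrocytes without overlap (log2 fold change -1.36, SE 0.301, adjusted *p* = 7.2e-05, edgeR), and neurons overlapped with astrocytes (-1.16, SE 0.373, adjusted *p* = 0.00955, edgeR). *Mrps6*, the relative of bacterial S6, ranged from 2.82 to 6.90 CPM in astrocytes. Its range was 0.00 to 2.69 CPM for microglia and 0.00 to 4.87 CPM for neurons. It was lower in microglia (-1.58, SE 0.353, adjusted *p* = 8.67e-05, edgeR), again without overlap, and in neurons (-1.72, SE 0.501, adjusted *p* = 0.00384, edgeR), with overlap. The lower level of *Mrps7* in neurons was lost without WT replicate 1 (adjusted *p* = 0.127, edgeR) or KIN replicate 2. An exon of *Mrps6* shares bases with *Slc5a3*, a gene on the same strand, so its reads are partly uncertain. *Mrpl17*, near the exit tunnel, was at 3.53 to 5.63 CPM in astrocytes and at 0.00 to 3.28 CPM in neurons, without overlap (-1.63, SE 0.498, adjusted *p* = 0.00617, edgeR). Of the 6 neuronal libraries, 2 of the WT ones had 0 counts of it.

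**Figure D4:**
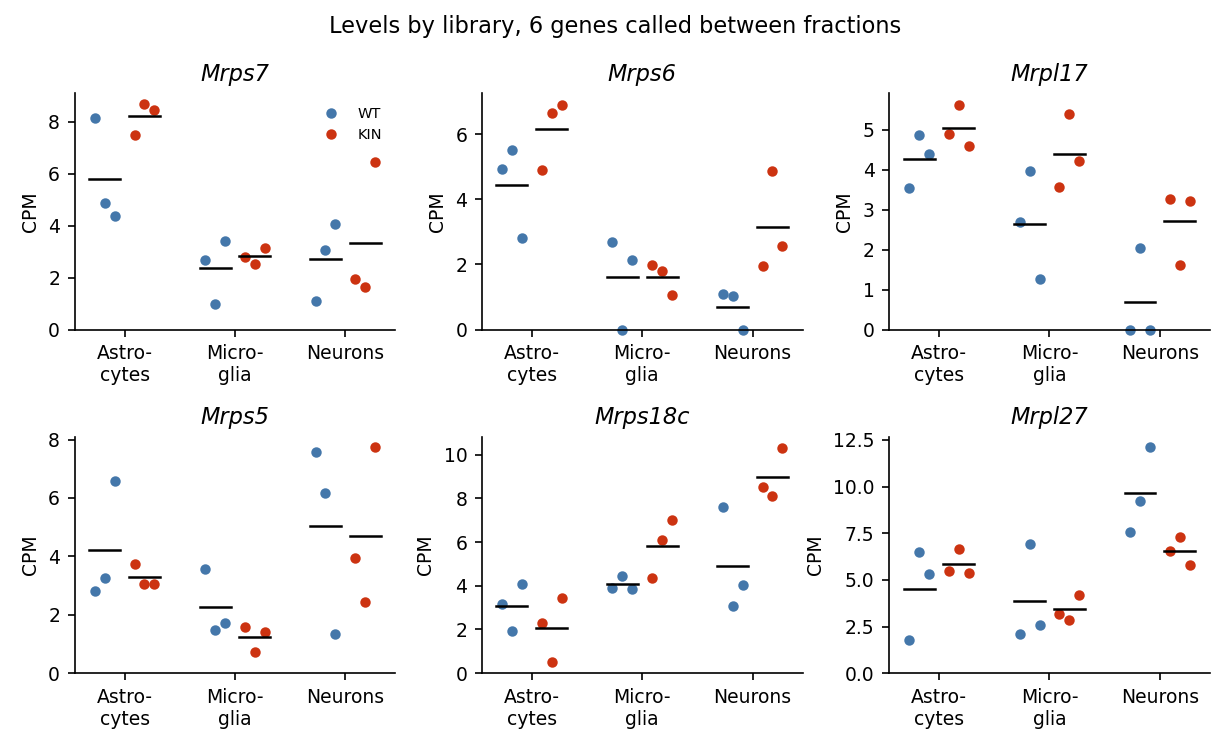
Level in CPM (vertical axis) of 6 genes that were called between fractions, by fraction and genotype. Each point is 1 library and lines are means of 3. *Mrps7* and *Mrps6* are highest in astrocytes, *Mrps18c* and *Mrpl27* in neurons, and *Mrps5* is lowest in microglia.

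*Mrps18c* is 1 of a family of genes whose products descend from bacterial S18. Its astrocyte level was 2.58 ± 1.27 CPM, its level in microglia 4.94 ± 1.31 CPM and its neuronal level 6.94 ± 2.79 CPM (SD, n = 6 each). It was higher in neurons than in astrocytes (1.33, SE 0.370, adjusted *p* = 0.00232, edgeR), a call that was lost without WT replicate 1 (adjusted *p* = 0.0631, edgeR). Its relatives showed no such order. In the same order, *Mrps18a* was at 5.12 ± 0.965, 4.79 ± 0.723 and 2.97 ± 1.44 CPM, and *Mrps18b* at 1.12 ± 0.856, 1.47 ± 0.719 and 1.21 ± 1.69 CPM, and neither was called on gene sums, while *Mrps18a* was called between neurons and astrocytes with the most abundant transcript alone. *Mrps30* (1.98 ± 0.692 CPM in astrocytes) and *Mrps36* (0.81 ± 0.506 CPM in microglia) were low throughout and also not called. For *Mrps36* the log2 fold change was -1.18 in microglia against astrocytes, with an unadjusted *p* of at most 0.05 (edgeR, 25.7% of all genes lower). It was 0.97 in neurons against microglia.

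*Mrpl52* was higher in neurons (8.95 ± 2.34 CPM) than in astrocytes (4.58 ± 3.03 CPM, SD, n = 6 each), with a log2 fold change of 1.25 (SE 0.325, adjusted *p* = 0.00112, edgeR). The wide spread in astrocytes is that between the genotypes, and the levels of KIN astrocytes (5.76 to 8.19 CPM) overlapped with those of neurons (5.68 to 12.3 CPM). *Mrps5* was at 0.718 to 3.58 CPM in microglia and at 1.35 to 7.74 CPM in neurons (1.52, SE 0.424, adjusted *p* = 0.00268, edgeR). *Mrpl27*, the relative of bacterial L27 near the site of peptide bond formation, was at 2.09 to 6.95 CPM in microglia and 5.80 to 12.1 CPM in neurons (1.15, SE 0.332, adjusted *p* = 0.00357, edgeR). Both pairs of ranges overlapped, and *Mrpl27* lost its call without WT replicate 1 or WT replicate 3.

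By origin, the astrocyte KIN effect had a median of 0.43 over the 41 tested genes classed with a bacterial relative. It was 0.42 over the 25 classed as specific to mitochondria. The latter class also lists *Mrps18a* and *Mrps18b*, whose family descends from bacterial S18. By subunit the median was 0.45 over 43 genes of the large and 0.42 over 23 of the small subunit. Each of these groups held 1 called gene. In microglia the medians were 0.14 for 38 large-subunit and -0.0077 for 18 small-subunit genes, and in neurons 0.03 for 26 and 0.31 for 15.

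The annotated type of the transcripts was examined for the 77 listed genes other than *Mrpl57*. In astrocytes, transcripts of the type retained_intron took 21.6%, 18.5% and 20.8% of their counts in WT and 15.3%, 15.4% and 13.6% in KIN. Transcripts of the type protein_coding took 62.0% to 66.2% in WT and 69.3% to 73.5% in KIN. Neither pair of ranges overlapped. Over all transcripts outside the 10 most abundant, the retained_intron share was 33.9% to 34.5% in WT and 34.4% to 40.5% in KIN astrocytes. In microglia the share of the mitoribosomal protein genes was 14.9% to 19.9% in WT and 17.1% to 17.4% in KIN, with overlap, and in neurons at least 20.7% in WT and 12.9% to 18.6% in KIN, without overlap. Over all transcripts it was 21.7% to 29% in WT and 28.2% to 29.4% in KIN neurons. WT replicate 2 was the lowest of these and also had 19.5% of the mitoribosomal counts on transcripts of the type nonsense_mediated_decay, against 3.73% to 6.59% in the other 5 neuronal libraries. The largest retained_intron counts were those of *Mrpl13* (285 of 340 counts) and *Mrpl42* (167 of 218 counts), which were thus assigned mainly to such transcripts. How reads shared by transcripts of a gene were assigned is not known, so these shares need not measure kept introns.

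**Figure D5:**
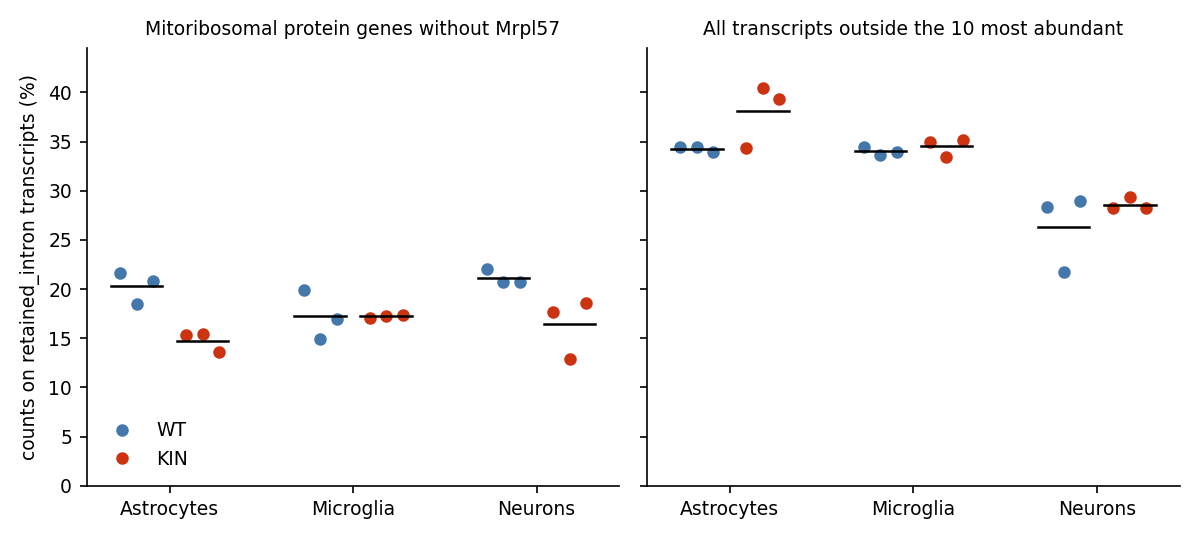
Share of counts on transcripts annotated as retained_intron (vertical axis, %) for the mitoribosomal protein genes without *Mrpl57* (left) and for all transcripts outside the 10 most abundant (right). Each point is 1 library and lines are means of 3. In astrocytes and neurons the left-hand shares of KIN lie below those of WT.

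Other genes of mitochondrial translation were taken from lists. Of 5 mitoribosomal proteins with other names, *Gadd45gip1*, for a large-subunit protein near the exit tunnel, was called higher in KIN astrocytes. Its level was 3.89, 3.90 and 2.51 CPM in WT and 7.20, 7.16 and 9.59 CPM in KIN, without overlap (log2 fold change 1.2, SE 0.333, adjusted *p* = 0.0112, edgeR). *Dap3* (0.13), *Ptcd3* (0.14), *Chchd1* (-0.08) and *Aurkaip1* (0.29) were not called there. Of 3 tested genes for mitochondrial RNA, *Slirp*, which stabilises mitochondrial messenger RNAs, was higher, at 4.24, 2.28 and 2.51 CPM in WT and 6.91, 8.70 and 5.37 CPM in KIN astrocytes (1.18, SE 0.356, adjusted *p* = 0.0204, edgeR). Of 13 assembly factors, 10 translation factors and 13 aminoacyl-tRNA synthetases tested in astrocytes, 0 were called in edgeR. By the unadjusted *p*, 1 assembly factor was higher, 1 translation factor was higher and 1 synthetase was lower, against 10.4% of all genes higher and 14.5% lower. Their medians were 0.17, 0.20 and -0.18. In microglia and neurons edgeR called 0 genes of these lists for the KIN effect, beside 1.52% and 0.0739% of all genes. At an unadjusted *p* of at most 0.05 there were 3 higher and 1 lower of 38 in microglia (6.19% and 5.85% of all genes) and 0 of 25 in neurons (2.66% and 2.38%), and at such shares these counts say nothing particular of the lists. *Slirp* was among them in microglia, at 2.39, 2.48 and 2.55 CPM in WT and 5.56, 3.95 and 5.26 CPM in KIN, without overlap (0.98, SE 0.395, adjusted *p* = 0.276, edgeR).

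Between fractions, of 49 genes of these lists 1 was called higher and 2 lower in microglia against astrocytes (14.9% and 18.2% of all genes). There were 0 higher and 4 lower in neurons against astrocytes (11.5% and 19.3%), and 1 higher and 6 lower in neurons against microglia (10.2% and 17.3%). By the unadjusted *p*, 2 were higher (16.2% of all genes) and 7 lower (27.3%) in neurons than in astrocytes. *Ptcd3*, which binds messenger RNA at the small subunit, was lower in neurons than in astrocytes (-2.00, SE 0.196, adjusted *p* = 2.42e-16, edgeR). Of its counts, 98.9% lay on 1 retained_intron transcript, and its gene holds the small nucleolar RNA *Snord94*. *Mpv17l2*, an assembly factor, was lower in neurons than in astrocytes (-2.75, SE 0.552, adjusted *p* = 1.92e-05, edgeR).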

How the data were processed

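RNA of 18 libraries (3 fractions, 2 genotypes, 3 mice each) was read from the counts table of the study, which its methods call MACE-seq and its labels panRNA-Seq. Per the study's methods and the submitters' processing notes, the authors collapsed duplicates by unique molecular identifiers, trimmed with cutadapt 4.6, checked reads with FastQC 0.11.9, mapped with Bowtie2 2.4.4, first to non-coding transcripts and next to the remaining transcripts of mm39, and counted with HTSeq 2.0.2 without strand. The deposited counts are whole numbers per transcript without normalization. Left aside were 36 further columns with values of single samples, and the authors' fold changes and *p* values from DESeq2.

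Counts were summed by symbol. Genes that reached 5 reads in 2 or more of the fitted libraries were scaled with TMM and tested with edgeR 4.0.16 (quasi-likelihood, two-sided, Benjamini-Hochberg over all genes of the fit, prior count 0.125). Each SE follows from the fold change and the F value of its test. Calls need an adjusted *p* of at most 0.05 and a log2 fold change of at least 1 in size. Each fraction was fitted on 6 libraries, the interaction on 12, and the compound KIN effect and the contrasts between fractions on 18. Contrasts between fractions take the 3 fractions of a mouse as separate samples, and the mouse was a block in an alternative. Library totals limit the precision, and floors cover counting error only. The scripts were tested on simulated data. DESeq2 1.42.0 was an alternative, and other scalings, filters and left-out libraries are described in the closing section.

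Positions, transcript types and promoters (250 bases before the canonical start) come from GRCm39 with GENCODE vM39, the assembly also named mm39, in which all 72 symbols were found. *Mrpl57* was searched with a BLAST word of 16 bases.

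Members and lists were chosen with earlier results of these data known. Named genes are those called for a KIN effect, the 3 largest changes each way in each fraction, called genes without overlap between fractions, the 6 highest levels, *Mrpl52*, genes whose place and name differ, mitoribosomal genes with other names, and at most 3 called genes of each other list. *Mrpl35*, *Mrps24*, *Mrpl11*, *Mrpl14*, *Mrpl24* and *Mrpl42* were added after their values were seen.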

Additional observations from a re-analysis of the deposited data

How the results depend on the processing

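In astrocytes, 2 mitoribosomal protein genes were called for the KIN effect. There was 1 with DESeq2, 1 with all 18 libraries in one fit, and 1 to 7 with each library left out, the 7 without WT replicate 2 and the 1 without WT replicate 3, KIN replicate 2 or KIN replicate 3. Calls of a higher level over all genes moved as well. They were 285 of 11751 in the main fit and 118 of 11751 with DESeq2. With all 18 libraries they were 206 of 13552, and without WT replicate 2 they were 472 of 11370. The median log2 fold change of the mitoribosomal protein genes was 0.34 when each gene was represented by its most abundant transcript, and 0.31 to 0.49 with a library left out. With that transcript, *Mrpl14* and *Mrpl41* were called higher, beside 253 of all 8684 genes. *Mrpl52* (adjusted *p* = 0.197, edgeR) and *Mrps21* (adjusted *p* = 0.624, edgeR) were not called. The call for a *Mrpl52* transcript became 0 with DESeq2, which gave no adjusted *p* for it, and ranged from 0 to 2 with a replicate left out, the 0 where it had too few reads to be tested (without KIN replicate 2 or KIN replicate 3). In microglia, the median was 0.23 with the transcript of highest mean and -0.021 to 0.20 with a library left out. *Mrpl52* turned there to -0.25, -0.13 and -0.053 without WT replicate 1, WT replicate 3 and KIN replicate 2 and ranged up to 0.92, and *Mrpl41* ranged from -0.91 to 0.016, the latter without WT replicate 2. In neurons, the median was -0.18 with a mean of 10 counts required and 0.43 with all 18 libraries in one fit, where the median of all genes was 0.23, and 0.066 to 0.23 with a library left out (lowest without KIN replicate 2, highest without WT replicate 3). *Mrpl52* turned there to 0.058 without a filter, 0.33 with the transcript of highest mean, 0.076 with 18 libraries, 0.079 without WT replicate 3 and 0.066 without KIN replicate 2, and was lowest, at -0.40, without KIN replicate 3. The compound effect gave 1 call with the transcript of highest mean (*Mrpl14*) and 0 to 1 with a replicate left out, the 1 being *Mrpl52* without WT replicate 2. Both were higher, beside 54 of 11082 and 185 of 13351 genes in these fits. The 6 calls between microglia and astrocytes became 1 with a mean of 10 counts and 15 with the adjusted *p* alone. Over all genes, 824 were higher and 958 lower of 4998 in the first of these fits. In the second, 2762 were higher and 3023 lower of 13552. The 5 calls between neurons and astrocytes became 2 with a mean of 10 counts, where the median turned from -0.19 to 0.34, 8 with the transcript of highest mean and 8 with the adjusted *p* alone. Over all genes these fits called, in turn, 809 higher and 1045 lower of 4998, 1097 and 2477 of 11082, and 1824 and 2958 of 13552. The 2 calls between neurons and microglia became 6 with the adjusted *p* alone and 2 to 4 with a replicate left out. Over all genes, 1731 were higher and 2637 lower of 13552 by the adjusted *p* alone. With a replicate left out, 1101 to 1277 were higher and 2081 to 2325 lower. The cause of these changes was not tested. The low counts limit all of these tests.

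As to pairing, deviations of KIN and WT libraries of the same number correlated at -0.20 to 0.16, so the numbers were not taken as pairs. With the replicate block, 4 genes were called in astrocytes (*Mrpl41*, *Mrpl52*, *Mrps21* and *Mrps24*), and with the mouse as a block 1 interaction (*Mrpl52*). *Mrpl40* lost its call between microglia and astrocytes with the mouse as a block (adjusted *p* = 0.0662, edgeR).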
